A study of Mus musculus with 14 samples.

Results

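Zbtb20 (ENSMUSG00000022708) was followed in every cell class of the Atoh1 lineage of the mouse hindbrain. It is 1 of the 31054 genes of the deposited count tables and was chosen by its measured levels across cell classes, stages and genotypes in earlier results of these same 14 libraries. Its levels below are therefore a description, with no test of the classes against each other, and the p values of its genotype comparisons are given beside the values and are not independent evidence. Single cells were sorted as TdTomato-positive and DAPI-negative from hindbrains in which the Cre allele of Atoh1 switches on a Rosa lsl-tdTomato reporter, so that cells with an Atoh1 history and their descendants carry the label. Control embryos were Atoh1 Cre/+; Rosa lsl-tdTomato/+, and Atoh1 S193A/- embryos were Atoh1 Cre/S193A; Rosa lsl-tdTomato/+, both labelled C57BL/6J. Each genotype had 3 libraries at E14.5 and 3 at E18.5, each library from 1 embryo, with each mutant beside a littermate control. The other 2 libraries came from the dissected pontine nuclei (PN) of control pups at P5, pooled over several pups per library. The Cre allele takes the place of Atoh1, so both genotypes carry 1 null copy, and the controls were heterozygotes rather than wild type.

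Zbtb20 is a nuclear protein with a BTB domain and zinc fingers that acts mainly as a transcriptional repressor. It is known for setting the identity of hippocampal pyramidal neurons, for promoting astrocyte formation in the cortex and for silencing alpha-fetoprotein in the liver after birth, and mutations of the human gene cause Primrose syndrome. Atoh1 is the bHLH factor that makes the rhombic lip lineages, among them cerebellar granule cells and the mossy fiber neurons of the PN. These PN neurons pass from a cycling progenitor through an intermediate progenitor (IP) and a long migration before they settle in the ventral pons.

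The gene lies on the plus strand of mm10 at chr16:42875881-43642602, a span of 766722 bp with 21 transcripts and 55 distinct exons in GENCODE vM21. Its last exon, chr16:43618323-43642602, is 24280 bp long and lies at the end that 3′-end libraries count. The kept cells held 219344 Zbtb20 UMIs. The 3 antisense genes inside the span that were also counted were nearly silent, with 132 UMIs for Gm19522, 169 for Gm9968 and 16 for Gm15713. The lincRNA 4932412D23Rik, which starts just upstream on the other strand and runs away from Zbtb20, had 44. The window around the start site that RefSeq lists for Zbtb20, which lies inside the span, is shown because Atoh1 binds E-boxes (CANNTG). It is chr16:43247034-43247333 of GRCm38.p6, plus strand, 5′ to 3′, with its E-boxes in capitals.

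Zbtb20 start-site window: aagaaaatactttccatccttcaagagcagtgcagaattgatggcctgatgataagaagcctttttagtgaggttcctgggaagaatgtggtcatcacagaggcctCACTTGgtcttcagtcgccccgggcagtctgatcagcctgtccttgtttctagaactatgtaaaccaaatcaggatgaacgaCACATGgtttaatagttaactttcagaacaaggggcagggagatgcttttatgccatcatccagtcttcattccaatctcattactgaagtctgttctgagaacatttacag

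The window holds the E-boxes CACTTG at bases 107 to 112 and CACATG at 189 to 194, counted from its first base. The motif CANNTG, which is its own reverse complement, was in 72.3% of the 32851 RefSeq windows of this length, so a match is common. Neither CAGCTG, found in 16.3% of windows, nor CAGATG and its reverse complement CATCTG, found in 17.2%, was in this window.

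The 14 libraries held 108239001 to 236964126 UMIs, and 80250 of 150188 barcodes were kept, with a median of 11962 to 20783 UMIs per cell by library. The cells formed 29 named classes at E14.5, 25 at E18.5 and 22 at P5. A class was called "-like" from its marker genes, and 3.39% of the kept cells stayed unnamed. The markers were not always leading genes. In the largest differentiated neuron-like cluster of E14.5 and in the Bcas1 Enpp6 cells of P5, 0 of them were among the 10 leading genes. There, 10 of 10 and 7 of 8 were found in 10% of the cells of the class. Each pair of libraries shared at most 67 barcodes. The E14.5 litter 2 stood apart: its control and mutant held 15 and 2 PN migrating neuron-1-like cells and 25 and 0 PN differentiated neuron-like cells, and the genotype comparisons of Zbtb20 at E14.5 are given with and without it. Litter 2 also formed PN clusters almost of its own, which were joined to the progenitor-like, IP-like and migrating neuron-2-like classes by their markers. The S193A change cannot be read from 3′-end counts. The Atoh1 targets Rab15 and Barhl1, which report the activity of the factor, were lower in the libraries labelled Atoh1 S193A/-, as given with the gene lists.

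Over all kept cells, in UMIs per 1000000 UMIs (CPM), Zbtb20 stood at 167, 160 and 113 in the E14.5 control libraries and at 184, 191 and 179 in those of E18.5. At P5 it stood at 61.0 and 68.2. The P5 libraries were dissected, so their mixture of cells differed from that of the embryonic libraries by design. The values by class show that the gene was neither uniform nor confined to glia at any stage.

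At E14.5 Zbtb20 was moderate in PN progenitors, high in intermediate progenitors and early migrating cells, and low in differentiated PN neurons. In PN progenitor-like cells, which carried the cycle marker Mki67 and the radial glia gene Sox9, the control libraries of litters 1, 2 and 3 held 155, 172 and 149 CPM. In IP-like cells, marked by high Atoh1 and Barhl1, they held 377, 387 and 276 CPM. In PN differentiated neuron-like cells, marked by Mapt, they held 55.4, 12.9 and 39.8 CPM, of which the value of litter 2 rests on 6 Zbtb20 UMIs. The 3 states did not overlap over the control libraries. IP-like cells lay on average 2.18 times (1.85 to 2.44 within libraries) above progenitor-like cells.

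A further group of the same region of the lineage, marked by Cyr61, Tcim and Aldoc and richer in Sox9 and Fabp7 than the progenitor-like cells, held 172, 189 and 114 CPM in the controls. This range overlapped that of progenitor-like cells. Hemoglobin genes led this cluster, ahead of Cyr61, and the part of free RNA in it was not tested.

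Migrating neurons lay above the differentiated ones. The PN migrating neuron-1-like cells, which still held Atoh1 and Barhl1, had 371, 329 and 361 CPM in the control libraries, level with IP-like cells. The PN migrating neuron-2-like cells, marked by Robo3, the receptor that lets growth cones and somata cross the midline, had 257, 293 and 250 CPM, below migrating neuron-1-like cells in each control library. PN cells marked by Neurod1 and Bhlhe22 were found almost only in litter 2, where the control held 86.6 CPM and the mutant 71.9 CPM over 282 and 179 cells. With every cell thinned to 5000 UMIs, the share of cells with a Zbtb20 UMI was 40.9 to 52.2% in progenitor-like, 69.9 to 73.2% in IP-like and 8 to 18.7% in differentiated neuron-like cells. Without thinning these shares were 85.2 to 88.6%, 91.6 to 96.0% and 20 to 45.8%.

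**Figure D1:**
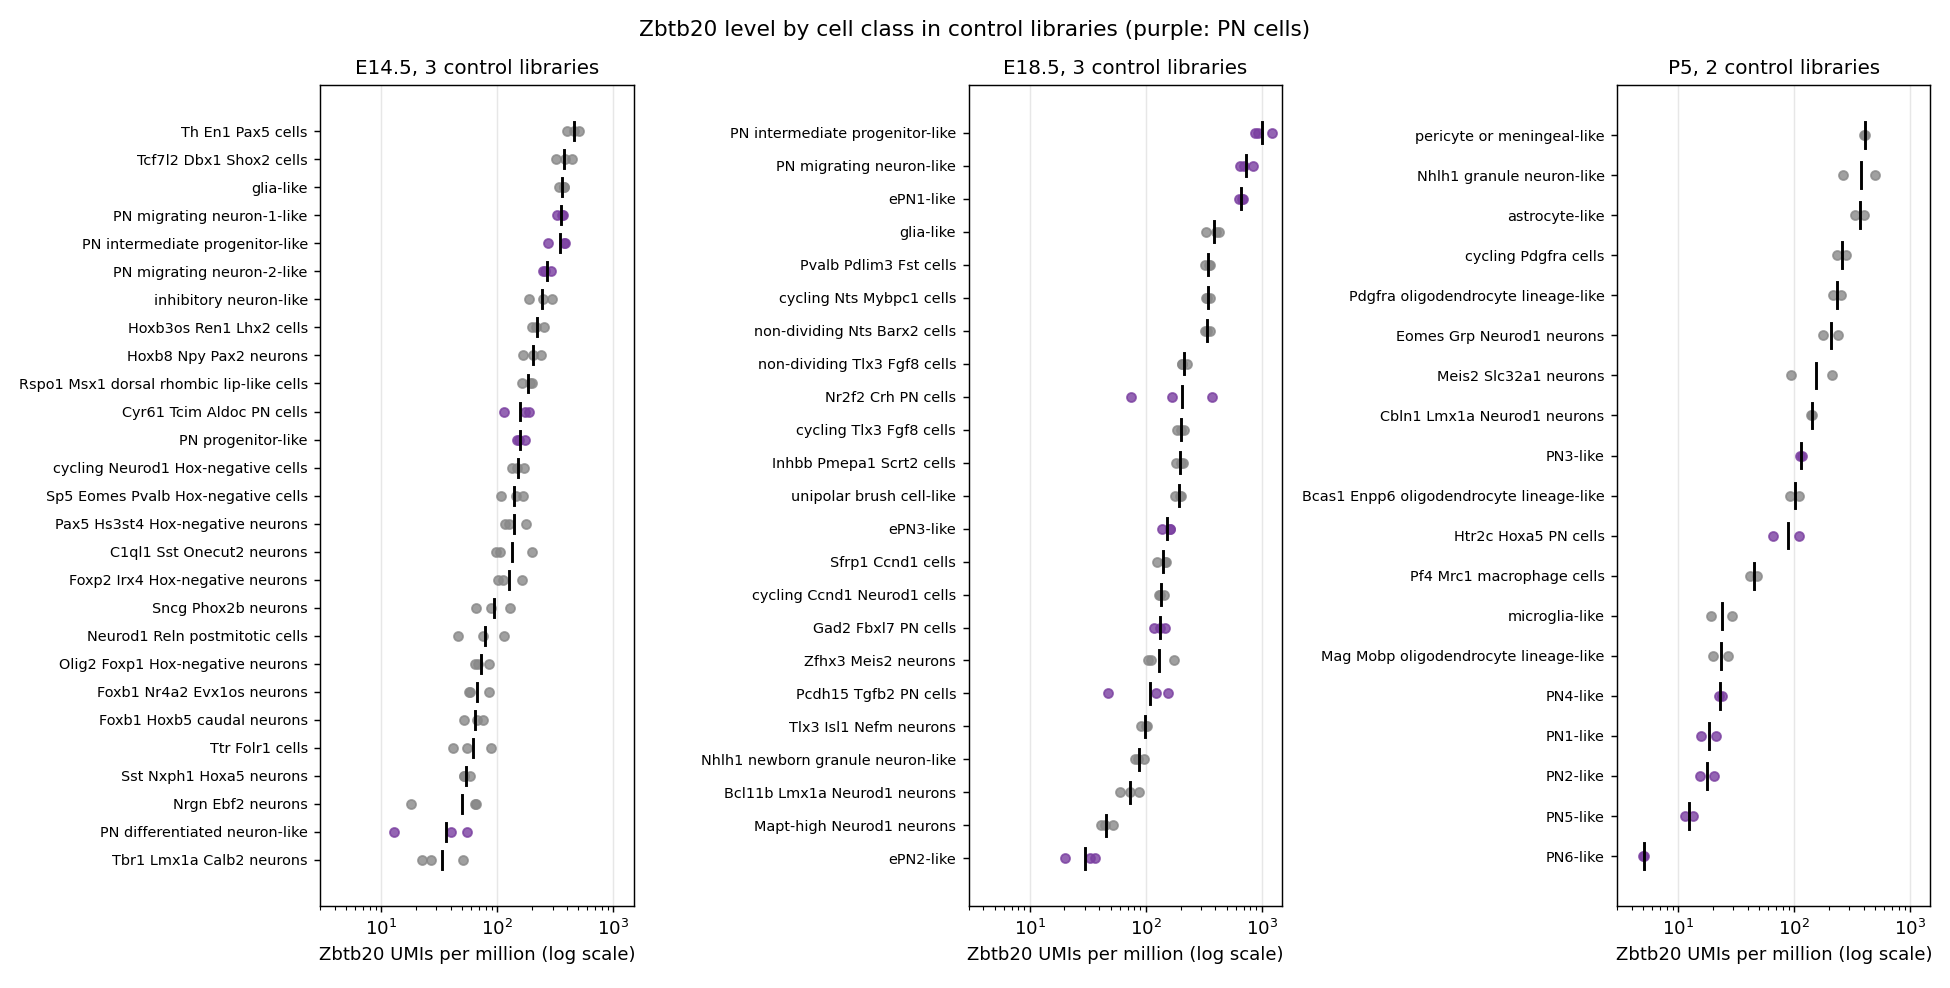
Zbtb20 in CPM (log axis) in each class of the control libraries at E14.5, E18.5 and P5, classes ordered by mean. Each point is 1 library, black bars are means, and purple marks PN classes; 2 classes are not drawn. IP-like cells reach 276 to 387 CPM at E14.5 and 876 to 1223 CPM at E18.5, while ePN2-like cells at E18.5 and PN6-like cells at P5 are the lowest of their stages.

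The same course was seen along an order of single cells drawn from these classes. A diffusion pseudotime was computed without Zbtb20 on E14.5 progenitor-like, IP-like, migrating and differentiated neuron-like PN cells with 5000 UMIs or more. Its root was a progenitor-like cell. The Cyr61 Tcim Aldoc cells, the Neurod1 Bhlhe22 cells, found almost only in litter 2, and the unnamed PN clusters were left out. The pseudotime was divided into 10 bins of equal cell number. It ran from progenitor-like cells in bin 1 to differentiated neuron-like cells in bins 8 to 10. Mean Zbtb20 over the control libraries was 152, 219, 383, 420, 360, 271, 249.8, 94.7, 28.96 and 26.1 CPM from bin 1 to bin 10. In bins 8 and 9 this is the mean of litters 1 and 3, since control 2 had fewer than 10 cells there. Bin 4, in which 75.9% of cells were migrating neuron-1-like, was the highest bin in 5 of 6 libraries, with 457 and 418 CPM in controls 2 and 3. Control 1 was highest in bin 3, at 447 CPM, where 87.0% of cells were IP-like.

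Atoh1 was highest in bin 3, with a pooled level of 679 CPM, and held 629 CPM in bin 4. The progenitor genes Id3, an inhibitor of bHLH factors, and Ccnd1, which drives entry into the cycle, were highest in bin 1. Nhlh1, a bHLH factor of newborn neurons, was highest in bin 6 and Robo3 in bin 7, where the mean of Zbtb20 was lower than in bin 4. Mapt, a microtubule protein of axons, was highest in bin 10, where Zbtb20 was low.

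**Figure D2:**
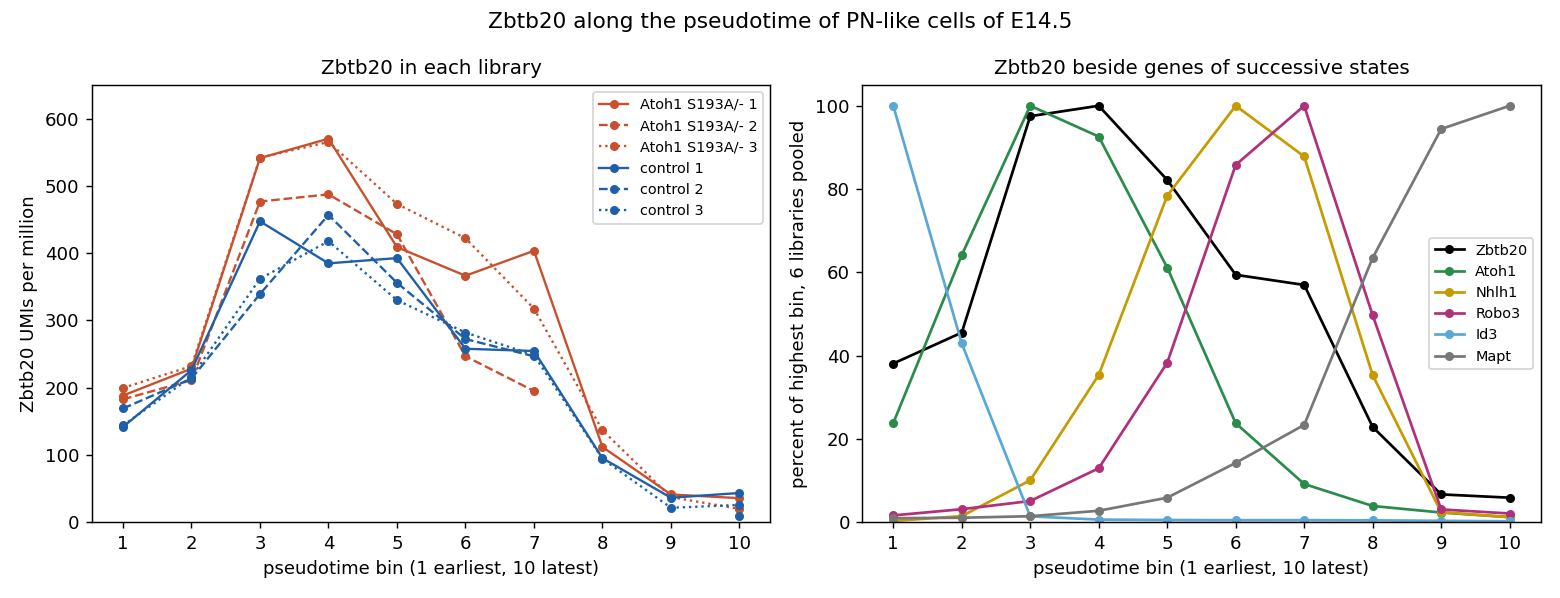
Left, Zbtb20 in CPM per library along 10 pseudotime bins of the E14.5 progenitor-like, IP-like, migrating and differentiated neuron-like PN cells. Points are left out where a library had fewer than 10 cells, as in bins 8 and 9 of both libraries of litter 2. Right, Zbtb20 and marker genes, 6 libraries pooled, as a percent of the highest bin of each gene. Zbtb20 peaks in bin 4, just after Atoh1 and before Nhlh1 and Robo3.

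PN cells were not the highest class at E14.5. Cells marked by Th, En1 and Pax5, a non-dividing group with next to no Hoxb3 or Hoxb5, led the 28 ordered classes with 460, 508 and 403 CPM in the controls, a mean of 457 ± 52.7 CPM (SD, n = 3). Cells marked by Tcf7l2, Dbx1 and Shox2 followed with 380 ± 58.9 CPM. Glia-like cells, with high Fabp7, Aldoc and Sox9, held 378, 376 and 339 CPM, 2.30 times the level of PN progenitor-like cells. At the other end, neurons marked by Tbr1, Lmx1a and Calb2 held 22.5, 50.9 and 27.01 CPM. All 27 pairs of neighbours in the order overlapped, so that only classes further apart can be placed against each other.

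Other postmitotic groups of E14.5 were spread between these ends. Inhibitory neuron-like cells, with Gad2, had 243 ± 55.0 CPM, and cells marked by Hoxb3os, Ren1 and Lhx2 had 222 ± 26.8 CPM (SD, n = 3 each). Zbtb20 was thus neither a marker of dividing cells nor one of neurons in general at this stage.

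At E18.5 the IP-like cells had the highest mean of all classes. They were few, 19, 13 and 10 cells in the controls of litters 1, 2 and 3, and held 1223, 925 and 876 CPM, a mean of 1008 ± 188 CPM (SD, n = 3). This mean was 2.91 times that of the E14.5 IP-like cells, and the libraries of the 2 stages did not overlap. PN migrating neuron-like cells held 843, 651 and 698 CPM in the controls, and 82.9 to 93.9% of thinned cells had a Zbtb20 UMI. No class of the E18.5 PN cells was called progenitor-like.

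The differentiated PN subtypes of E18.5 separated widely. ePN1-like neurons held 673, 635 and 693 CPM in the control libraries, overlapping the range of migrating cells, although Mapt was high in them as in the other differentiated PN classes. ePN3-like neurons, marked by Hoxb5, held 162, 161 and 140 CPM. ePN2-like neurons held 32.9, 20.2 and 36.4 CPM. The 3 subtypes did not overlap in any control library, and ePN1-like lay 4.35 times (3.94 to 4.96 within libraries) above ePN3-like. ePN4-like cells passed 10 cells in only 2 control libraries, with 36.1 and 27.6 CPM over 10 and 50 cells. In a fresh clustering without doublet removal the ePN2-like class held 118 CPM, and which of these changes moved it was not tested.

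PN cells outside these subtypes lay mostly between them. Cells marked by Gad2 and Fbxl7 held 148, 117 and 133 CPM in the controls and cells marked by Pcdh15 and Tgfb2 held 47.8, 123 and 155 CPM. Cells marked by Nr2f2 and Crh had the widest spread, at 373, 75.4 and 170 CPM over 22, 20 and 41 cells, and their mean of 206 CPM was 71.3 CPM in the fresh clustering with a mitochondrial limit of 10% and 75.7 CPM at a Leiden resolution of 2.0.

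The shares of cells told the same order. Of thinned cells, 66.7 to 74.5% of ePN1-like, 27.1 to 34.6% of ePN3-like and 8.80 to 12.6% of ePN2-like cells had a Zbtb20 UMI, and 87.3 to 93.3%, 50.7 to 54.2% and 18.9 to 30.9% did without thinning. No microglia-like class was named in the embryonic libraries, so the share that free RNA gives there was not measured. The ePN2-like share is close to that of microglia-like cells at P5 (8.12 to 11.9%), and no fold over the low classes is given. The median depths of the 3 subtypes were 14222 to 18601, 17278.5 to 23847 and 16232 to 23991 UMIs.

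Other rhombic lip groups of E18.5 held high levels too. Pvalb Pdlim3 Fst cells had 353, 358 and 324 CPM, dividing Nts Mybpc1 cells 341, 361 and 332 CPM, and non-dividing Nts Barx2 cells 337, 358 and 327 CPM. None reached the PN migrating neuron-like cells in any control library. Both Nts classes held Atoh1, Barhl1, Pax6 and Neurod1 with little Hoxb3, and their place in the granule cell lineage was not tested. In the classes given next, placed in that lineage by their markers alone, the gene was moderate and lower in neurons. Dividing progenitors marked by Ccnd1 and Neurod1 held 136 ± 8.2 CPM, newborn granule neuron-like cells marked by Nhlh1 held 87.8 ± 8.1 CPM, and Neurod1 neurons with high Mapt held 46.0 ± 5.4 CPM (SD, n = 3 each). Within libraries the first lay 2.98 times (2.49 to 3.49) above the last. Progenitors marked by Tlx3 and Fgf8 were higher than the Ccnd1 Neurod1 progenitors, at 185, 203 and 213 CPM in the dividing cells and 226, 207 and 208 CPM in the non-dividing cells. Classes called non-dividing still held some Mki67. Its mean was 98.3 against 823 CPM in the dividing Tlx3 Fgf8 cells, and 91.4 CPM in Nts Barx2 against 847 CPM in Nts Mybpc1 cells. Unipolar brush cell-like cells, which are excitatory interneurons of the cerebellum, held 194 ± 13.8 CPM.

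Glia-like cells of E18.5, again led by Fabp7, held 329, 431 and 405 CPM in the controls, which overlapped the E14.5 glia-like cells. This cluster of 171 control cells also carried the microglial genes C1qa and Cx3cr1, at 245 and 119 CPM on average, and the part of microglia in its Zbtb20 level was not tested. Of the 22 pairs of neighbours at E18.5, 16 overlapped.

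At P5 PN3-like neurons stood well above the other numbered PN subtypes. They held 118 and 113 CPM in the 2 libraries, whereas PN1-like neurons held 18.6 ± 3.8, PN2-like 17.9 ± 3.7, PN4-like 23.2 ± 0.9 and PN5-like 12.5 ± 1.5 CPM (SD, n = 2 each). PN6-like neurons were lowest, with 4.98 and 5.15 CPM. PN cells marked by Htr2c and Hoxa5 had 66.5 and 109 CPM, near the PN3-like level in 1 library. Of the 19 pairs of neighbours at P5, 11 overlapped.

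Free RNA limits how low values can be read. Microglia-like cells, which do not come from the Atoh1 lineage and served as the comparison, held 28.96 and 19.4 CPM, and 8.12 to 11.9% of their thinned cells had a Zbtb20 UMI (16.4 to 19.9% unthinned, median depth 10324 to 10997 UMIs). PN3-like neurons, at 23.98 to 27.95% of thinned cells (55.8 to 56.6% unthinned, median depth 25032 to 28705.5 UMIs), lay above them, at 4.95 times (4.06 to 5.84) their CPM. Macrophage cells marked by Pf4 and Mrc1 held more than microglia-like cells, at 42.1 to 47.8 CPM and 16.7 to 17.6% of thinned cells. PN3-like neurons lay above these too, but by less, so the distance depends on the comparison class. The shares of PN1-like (5.57 to 7.81%), PN2-like (6.59 to 9.68%), PN4-like (8.88 to 11.0%), PN5-like (5.06 to 8.23%) and PN6-like neurons (2.33 to 2.56%) were at or below those of microglia-like cells. This comparison does not set them apart from background. PN6-like neurons lay below the microglia-like cells in CPM as well, so that the microglia-like level is no exact floor. At similar median depths, PN4-like neurons held 22.6 to 23.9 CPM against 4.98 to 5.15 CPM in PN6-like neurons. Whether this difference is expression or free RNA was not tested.

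The non-neuronal cells of P5 spanned the whole range. Astrocyte-like cells held 405 and 333 CPM and pericyte or meningeal-like cells 409 and 402 CPM, among the highest ordered classes. In the oligodendrocyte lineage the level was lower in classes with later markers. Pdgfra cells, which are precursors, held 254 and 218 CPM, Bcas1 Enpp6 cells, which are newly formed oligodendrocytes, 110 and 92.5 CPM, and Mag Mobp cells, which make myelin, 27.1 and 20.2 CPM. These 3 did not overlap in the 2 libraries. Mag Mobp cells were thus level with microglia-like cells. The median depth of the Mag Mobp cells was 4021 to 7782 UMIs by library.

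Across all stages the genes whose pattern was most like Zbtb20 were not of its own family. Over the 71 classes with 10 cells in every control library and 12114 genes, the highest Pearson correlations of log2(CPM + 1) were those of Ikzf2 (0.77), a zinc finger factor of the Ikaros family, Btbd7 (0.76), Golph3l (0.76), Amotl1 (0.73), an angiomotin of cell junctions, and Pou2f1 (0.73), the broadly expressed POU factor Oct-1. The lowest were Cds1 (−0.66), Got1 (−0.63), an aminotransferase of the cytosol, Fam49b (−0.63), 0610012G03Rik (−0.62) and Atp6v1c1 (−0.62), a subunit of the vacuolar proton pump. These classes share libraries and are not independent, so the values are descriptions.

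Sox9, which acts in glial progenitors, had 0.52 and Atoh1 0.36, while Mapt had −0.40. Of the 26 other Zbtb genes compared, 19 had a correlation above 0 and 1 had one over 0.5, with a median of 0.21 against 0.064 over all genes. Zbtb18, the repressor of that family known from cortical neurons, had 0.062.

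The genotype comparison asks whether the phosphorylation-site change in Atoh1 moved Zbtb20. At E14.5 the point values of the mutants were mostly higher. Over all cells the control libraries held 167, 160 and 113 CPM and the mutants 177, 199 and 157 CPM in litters 1, 2 and 3, higher in 3 of 3 litters with overlapping groups. The log2 change was 0.25 ± 0.15 (SE; edgeR quasi-likelihood test, adjusted p = 0.553), which was not called, in a fit that called 0.0196% of 10219 genes. With the litter as a block it was 0.26 ± 0.07 (edgeR, adjusted p = 0.0432) and was called, in a fit that called 17.5% of those genes. Without litter 2 the values were 0.24 (edgeR, adjusted p = 0.607) and, with the block, 0.26 (adjusted p = 0.0846), so that the call under the block was lost. Leaving out 1 library gave 0.106 to 0.334. The controls of litters 1 and 2 were counted with another Cell Ranger version than all other libraries, and the libraries of the shared version, 3 mutants against control 3 alone, gave 0.57 (edgeR, adjusted p = 0.998). Control 3 was the lowest of the controls, and its difference from the others and the version cannot be told apart.

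The mixture of cells also differed between these libraries. PN progenitor-like cells made up 0.921 ± 0.403% of kept cells in the controls and 3.30 ± 0.71% in the mutants (SD, n = 3 each). Over all cells, a change in cell numbers and a change in RNA per cell cannot be told apart, so the classes are given next.

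In the 5 main PN classes of E14.5 each mean was higher in the mutants. Progenitor-like cells held 185, 192 and 196 CPM in the mutants against 155, 172 and 149 CPM in the controls of litters 1, 2 and 3, and the groups did not overlap. IP-like cells held 371, 437 and 367 against 377, 387 and 276 CPM, with overlap. Migrating neuron-2-like cells held 389, 280 and 331 against 257, 293 and 250 CPM, the pair of litter 2, from a cluster almost of its own, going the other way. Differentiated neuron-like cells held 58.5 and 57.0 against 55.4 and 39.8 CPM in litters 1 and 3.

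Migrating neuron-1-like cells could be compared in litters 1 and 3 alone. There they held 468 and 530 CPM in the mutants against 371 and 361 CPM in the controls, and every mutant lay above every control. With 2 against 2 libraries this is common. In pseudotime bins of that size 34% of the pairs of a bin and a gene did not overlap, and the share for this class was not measured. The log2 change was 0.41 ± 0.11 (edgeR, adjusted p = 0.466), not called, in a fit of these 4 libraries that called 0.0853% of 9378 genes. With the litter as a block it was 0.41 ± 0.08 (edgeR, adjusted p = 0.00553) and was called, in a fit that called 1.42% of those genes.

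The log2 change was 0.22 ± 0.12 for progenitor-like, 0.16 ± 0.13 for IP-like and 0.25 ± 0.13 for neuron-2-like migrating cells, and 0.25 ± 0.13 for differentiated cells of litters 1 and 3 (edgeR, SE). None of these was called with or without the block. Without litter 2 the changes were 0.29 ± 0.15 for progenitor-like, 0.19 ± 0.14 for IP-like and 0.44 ± 0.11 for migrating neuron-2-like cells, and with the block added 0.30 ± 0.12 (edgeR, adjusted p = 0.356), 0.20 ± 0.10 (adjusted p = 0.452) and 0.43 ± 0.09 (adjusted p = 0.0714), none of them called.

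Along pseudotime the mutant libraries lay above all controls in bins 1, 3, 4 and 5, which is 4 of the 7 bins with 3 libraries of each genotype. Over those bins 9.7% of the pairs of a bin and a gene found in 10% of its cells did not overlap. The bins are slices of the same embryos and not separate trials. The share of genes that do not overlap in several bins was not measured, so the count of bins stands without a background. In bins 6 and 7 the mutants of litters 1 and 3 did so too, but the mutant of litter 2 lay below every control, at 247 against 258 to 282 CPM and at 195 against 247 to 255 CPM. In bins 8 and 9 both mutants with 10 cells lay above both such controls, where 34% of pairs did not overlap, and in bins 2 and 10 the genotypes overlapped. In bin 4 the mutants of litters 1, 2 and 3 held 570, 487 and 565 CPM against 385, 457 and 418 CPM in the controls. An exact permutation test of 3 against 3 libraries cannot go below 0.10, and none was run. All mutants and 2 of 3 controls peaked in that bin.

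Over the 25 E14.5 classes with 10 cells in every library, Zbtb20 had a higher point value in the mutants in 18, with log2 changes from −0.20 to 0.93, and was called in 0 (edgeR; 0 of 25 at an unadjusted p under 0.05, lowest adjusted p = 0.975). The same fits called 0.00205% of all gene and class pairs. Under the litter block 0 of the 25 were called and 7 had an unadjusted p under 0.05 (edgeR, lowest adjusted p = 0.130), against 0.211% of all pairs called. DESeq2 also called 0. The genotypes did not overlap in 1 of the 25, the progenitor-like cells, while 7.69% of all gene and class pairs tested did not overlap. Without litter 2 the mutants had the higher point value in 20 of the 25, with log2 changes from −0.335 to 1.20, and 0 were called, with 2 at an unadjusted p under 0.05 (edgeR, lowest adjusted p = 0.967), where 0.0123% of pairs were called. With the block added 0 were called and 11 had an unadjusted p under 0.05 (edgeR, lowest adjusted p = 0.0714), where 0.813% of pairs were. The highest value was that of neurons marked by Nrgn and Ebf2, with 157, 111 and 24.8 CPM in the mutants against 66.3, 64.4 and 18.3 in the controls, higher in 3 of 3 litters with overlapping groups (0.93 ± 0.63, edgeR, adjusted p = 1.0; 0.78 ± 0.16 and 0.130 with the block). The Tbr1 Lmx1a Calb2 neurons held 34.0, 85.9 and 49.3 CPM in the mutants against 22.5, 50.9 and 27.01 in the controls, also higher in 3 of 3 litters (0.71 ± 0.39, edgeR, adjusted p = 1.0; 0.70 ± 0.12 and 0.312 with the block). Th En1 Pax5 cells had 604, 558 and 439 CPM in the mutants, overlapping their controls. The glia-like cells had 381, 338 and 254 CPM in the mutants against 378, 376 and 339 in the controls, with no common direction over litters.

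**Figure D3:**
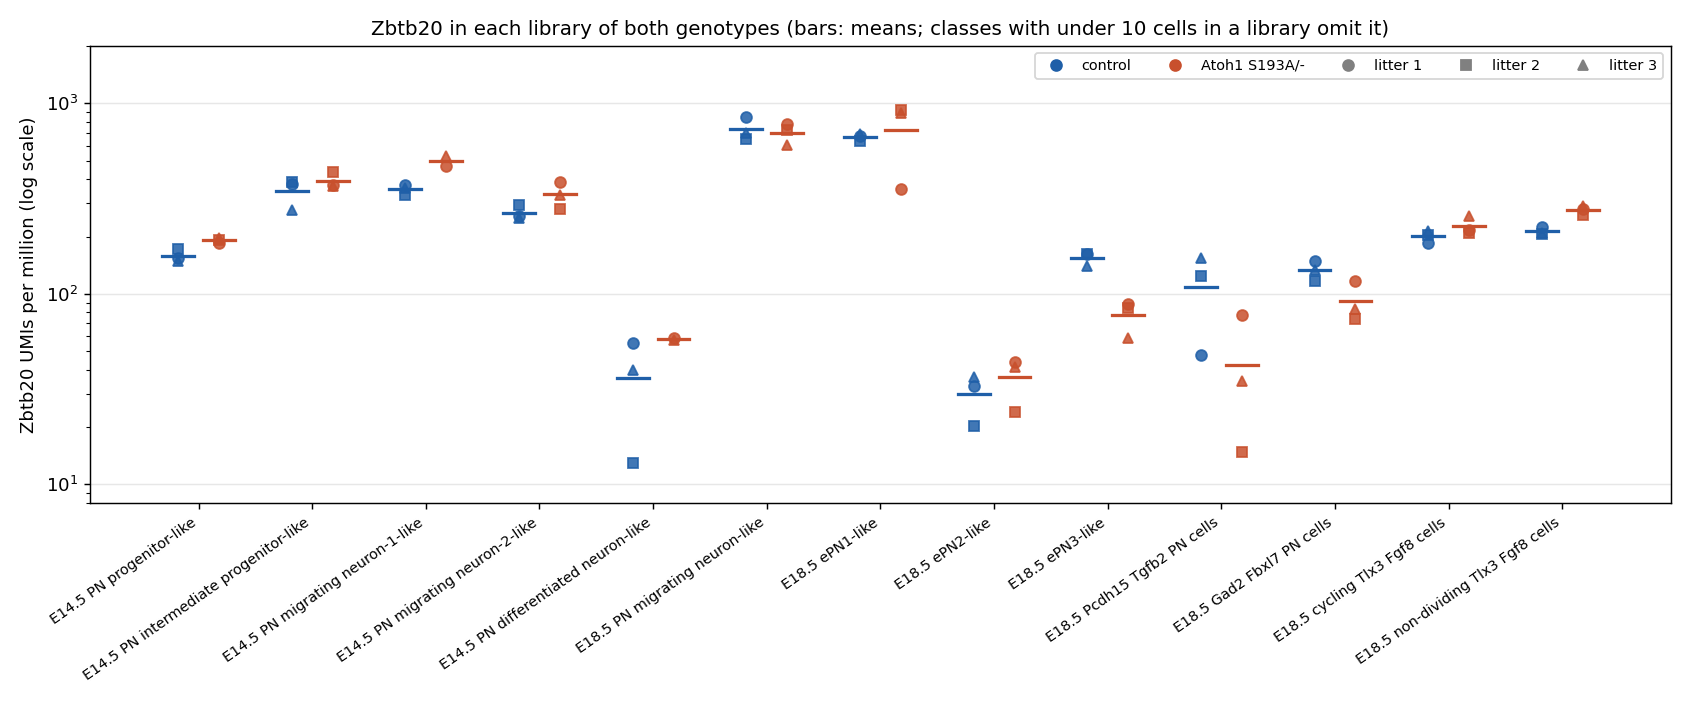
Zbtb20 in CPM (log axis) per library in selected classes of E14.5 and E18.5, controls beside Atoh1 S193A/- embryos. Bars are means and the marker shape gives the litter. Mutant ePN3-like values of 58.6 to 88.2 CPM lie below all controls (140 to 162 CPM), and non-dividing Tlx3 Fgf8 cells lie above theirs.

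At E18.5 the point values were higher in some classes and lower in others, and a difference between classes was not tested. Over all cells the controls held 184, 191 and 179 CPM and the mutants 210, 177 and 169 CPM, a log2 change of −0.01 ± 0.08 (edgeR, adjusted p = 1.0), in a fit that called 0% of 9866 genes, with 117 at an unadjusted p under 0.05 (DESeq2 called 13 genes, Zbtb20 not among them). The litter block gave 0.182% called, and Zbtb20 was not among them.

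ePN3-like neurons, the Hoxb5-marked subtype, held less Zbtb20 in the mutants. The controls of litters 1, 2 and 3 held 162, 161 and 140 CPM and the mutants 88.2, 84.6 and 58.6 CPM, so every mutant lay below every control. Within litters the mutant level was 0.543, 0.525 and 0.420 of the control, lower in 3 of 3. The log2 change was −1.03 ± 0.13 (edgeR, unadjusted p = 4.94e-07, adjusted p = 0.00503) and was called. That fit called 0.00981% of 10192 genes, which is Zbtb20 alone, with 409 at an unadjusted p under 0.05. With the litter block it was −1.04 ± 0.10 (edgeR, adjusted p = 1.66e-05), among 0.0294% of genes called, and DESeq2 gave −1.03 ± 0.16 (adjusted p = 2.35e-06). Without the control of litter 2 it was −0.996 (edgeR, adjusted p = 0.0553) and just missed the call, while leaving out any other library kept it.

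The class was of similar size in both genotypes, with 315 control and 316 mutant cells. It joined 3 sub-clusters, and in both larger ones every mutant lay below every control, at 88.8, 109 and 85.9 against 129, 185 and 136 CPM in the first and 116, 121 and 56.7 against 242, 173 and 206 CPM in the second. The third was low in both genotypes, at 28.9, 9.19 and 31.6 CPM in the mutants against 15.7, 38.8 and 40.2 CPM in the controls. It held 22, 16 and 43 mutant and 14, 10 and 32 control cells. For sub-clusters the share of all genes that did not overlap was not measured. They are parts of the same class and libraries, so they add no replicates. Of the 9 fixed markers of ePN1, the subtype with the most Zbtb20 at this stage, 7 had a lower point value in the mutant ePN3-like cells. Cdkn1c, an inhibitor of the cell cycle, held 225, 216 and 189 CPM in the mutants against 369, 346 and 259.7 CPM in the controls. It was called lower with the block (−0.62 ± 0.08, edgeR, adjusted p = 0.000366) and with DESeq2 (adjusted p = 0.0117), and not by edgeR without the block (adjusted p = 0.234). The other 8 were not called in any of these fits. The summed level of the 9 markers was 1655 to 1791 CPM in the mutants and 1614 to 2113 CPM in the controls, with overlap, and 3364 to 4118 CPM in ePN1-like cells of both genotypes. The part of ePN1-like cells in the lower Zbtb20 was not tested.

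The share of thinned cells with a UMI was 17.3 to 25.5% in the mutants and 27.1 to 34.6% in the controls, at median depths of 17259 to 21168 and 17278.5 to 23847 UMIs.

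PN cells marked by Gad2, an enzyme of GABA synthesis, and Fbxl7 also stood lower in the mutants. They held 117, 73.9 and 83.3 CPM against 148, 117 and 133 CPM in the controls of litters 1, 2 and 3, lower in 3 of 3 litters, with groups that just overlapped. The change was −0.52 ± 0.14 on the log2 scale (edgeR, adjusted p = 0.507), not called, in a fit that called 0.0309% of 9704 genes. With the litter block it was −0.55 ± 0.11 (edgeR, adjusted p = 0.0261) and was called, among 0.165% of genes. With a mitochondrial limit of 10% the fresh clustering put this class at 237 CPM in the controls and the change at −0.30 (edgeR, adjusted p = 1.0).

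The Pcdh15 Tgfb2 neurons had a larger point value on few cells. Hemoglobin genes led this cluster, ahead of Pcdh15 and Tgfb2, and the part of free RNA in its values was not tested. The controls held 47.8, 123 and 155 CPM over 17, 34 and 45 cells and the mutants 77.4, 14.8 and 34.9 CPM over 20, 11 and 29 cells. The mutant values of litters 2 and 3 rest on 3 and 13 Zbtb20 UMIs, and litter 1 went the other way. This gave a log2 change of −1.30 ± 0.30 (edgeR, adjusted p = 0.149), not called, in a fit that called 0.0202% of 9891 genes. Under the block it was −1.23 ± 0.31 (edgeR, adjusted p = 0.107) and was not called either, where 0.0809% of genes were. Leaving out the mutant of litter 1 gave −2.03 (edgeR, adjusted p = 0.000633) and leaving out its control −1.57 (adjusted p = 0.00505), both called.

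The non-dividing Tlx3 Fgf8 cells stood higher in the mutants. They held 279, 259 and 291 CPM against 226, 207 and 208 CPM in the controls of litters 1, 2 and 3, higher in 3 of 3 litters with no overlap. The log2 change was 0.33 ± 0.08 (edgeR, adjusted p = 0.128), not called where 0.485% of 9689 genes were. With the litter block it was 0.33 ± 0.07 (edgeR, adjusted p = 0.00622) and was called, where 2.59% of genes were. The dividing Tlx3 Fgf8 cells held 217, 210 and 256 against 185, 203 and 213 CPM, higher in 3 of 3 litters with overlap, a log2 change of 0.15 ± 0.10 (edgeR, adjusted p = 0.998; 0.389 with the block).

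The states with the most Zbtb20 moved little or unevenly. Migrating neuron-like cells held 776, 727 and 602 CPM in the mutants against 843, 651 and 698 CPM. ePN1-like cells held 353, 920 and 889 against 673, 635 and 693 CPM, a spread in the mutants that came with only 67 cells against 229. ePN2-like cells held 44.1, 23.9 and 41.5 against 32.9, 20.2 and 36.4 CPM, higher in 3 of 3 litters but with overlap and not called. IP-like cells held 1342 CPM in mutant 1, while mutants 2 and 3 had 3 and 1 such cells. Glia-like cells held 526, 454 and 380 against 329, 431 and 405 CPM.

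Over the 21 tested classes of E18.5, 14 had a higher point value in the mutants, with log2 changes from −1.30 to 0.56, and 1, ePN3-like, was called (edgeR; 5 of 21 at an unadjusted p under 0.05; DESeq2 also called this class alone), where 0.113% of all gene and class pairs were called. In 4 of the 21 classes the genotypes did not overlap, as was so for 10.1% of all gene and class pairs tested. Zbtb20 was lower in the mutants in ePN3-like cells and higher in 3, the non-dividing Tlx3 Fgf8 cells, the non-dividing Nts Barx2 cells and cells marked by Inhbb, Pmepa1 and Scrt2. These last held 235, 226 and 213 against 209, 203 and 184 CPM, and the Nts Barx2 cells 382, 372 and 377 against 337, 358 and 327 CPM. Neurons marked by Zfhx3 and Meis2 had the largest higher value, at 156, 203 and 211 against 106, 175 and 112 CPM, a log2 change of 0.56 ± 0.19 (edgeR, adjusted p = 1.0; 0.0527 with the block). Blocking on litter, 3 classes were called, of which the Tlx3 Fgf8 class was higher and the ePN3-like and Gad2 Fbxl7 classes were lower, where 0.708% of pairs were called.

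The difference between the stages was tested by itself. Over all cells the interaction was −0.25 ± 0.18 on the log2 scale, E18.5 minus E14.5 (edgeR, adjusted p = 0.814), in a fit that called 0% of 10511 genes. Blocking on litter gave −0.26 ± 0.11 (edgeR, adjusted p = 0.133), not called where 14.4% of genes were. The genotype difference was thus not shown to differ between the stages.

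**Figure D4:**
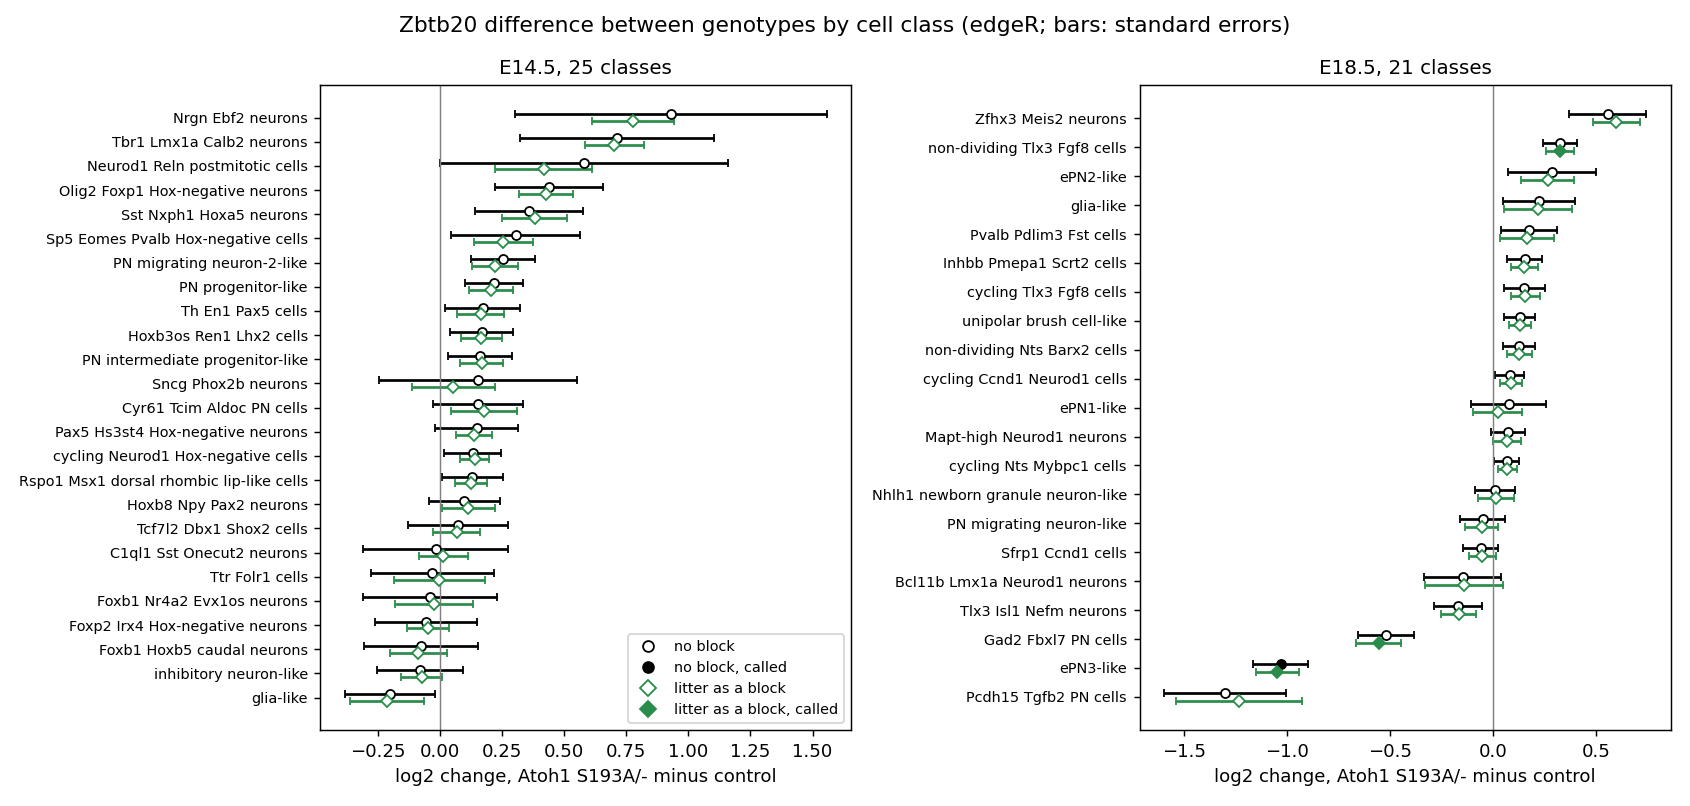
Log2 change of Zbtb20, Atoh1 S193A/- minus control, by class at E14.5 and E18.5, with bars of 1 SE. Black circles are the fit without and green diamonds the fit with the litter as a block, and filled symbols were called. Without the block ePN3-like cells alone are called, and with it the Gad2 Fbxl7 and non-dividing Tlx3 Fgf8 cells are called too. Migrating neuron-1-like and differentiated neuron-like cells of E14.5, fitted on 4 libraries, are not drawn.

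Genes tied to the known roles of Zbtb20 were read in the same fits. These lists were chosen with earlier results of these data known. Over all cells, 0 members of any list were called at either stage without the block (edgeR, with 1182 of all genes at an unadjusted p under 0.05 at E14.5), while DESeq2 called 8 gliogenic genes, 1 astrocyte gene and Rab15 at E14.5, where it called 2.35% of 10216 genes, and Rab15 at E18.5, where it called 0.132% of 9863. The 31 tested of 41 other Zbtb genes had a median log2 change of 0.07 at E14.5 against 0.01 over all genes, and −0.003 at E18.5.

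The gliogenic and radial glia genes, 21 of 26 tested, had a median of 0.56 at E14.5, and the 18 tested at E18.5 had 0.11. With the litter block, in the fit that called 17.5% of all genes, 13 of them were called higher at E14.5 (edgeR), led by the Notch target Hes1 (1.31), the receptor Notch1 (1.19), Hes5 (1.09) and Sox9 (1.06), all on the log2 scale. The mixture of cells moved with this list. Of the 6 E14.5 classes with the most Sox9, the PN progenitor-like cells had a higher share in the mutants, as given above. Rspo1 Msx1 dorsal rhombic lip-like cells held 4.01 to 4.80% of kept cells in the controls and 9.51 to 11.4% in the mutants, and Ttr Folr1 cells 0.4 to 1.2% and 1.24 to 5.42%, both without overlap. Cyr61 Tcim Aldoc cells held 0.283 to 1.14% in the controls and 0.463 to 4.21% in the mutants, higher in 3 of 3 litters with overlap. Glia-like cells (0.548 to 0.616% and 0.174 to 0.670%) and Tcf7l2 Dbx1 Shox2 cells (1.61 to 2.8% and 0.883 to 2.1%) overlapped. The part of these shares was not tested. Of the astrocyte genes, 9 of 16 tested, 3 were called higher with the block, namely Sox9, Sparcl1 (0.64) and Gja1 (0.52), and 1 lower, the glutamate transporter Slc1a2 (−0.28). At E18.5 the lipid carrier Apoe was the only astrocyte gene called with the block, at 0.42.

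Regulators of cortical projection neurons, 12 of 15 tested, had medians of −0.004 and −0.04 at the 2 stages. With the block Bhlhe22 (−0.40) and Rorb (−0.27) were called lower at E14.5, 2 of 12 in the fit that called 17.5% of all genes, so the count is near the background. Of the 25 granule and precerebellar regulators, all tested, the same fit gave 2 higher, among them Atoh1 itself (0.47), and 5 lower at E14.5, among them the Atoh1 targets Rab15 (−1.23), a trafficking GTPase, and Barhl1 (−0.50), a homeobox factor. Read by class with the block, Atoh1 went the other way in PN progenitor-like cells of E14.5 (−0.41 ± 0.09, edgeR, adjusted p = 0.0479), the only one of 22 classes in which it was called there. In the 18 classes of E18.5, Atoh1 was called higher in 7 with the block, where 0.708% of all gene and class pairs were called. It was called higher in 2 with DESeq2 and in 0 without the block, and lower in 0 by any of these. At E18.5 the block gave Rab15 lower over all cells (−0.99), where 0.182% of genes were called.

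Counted class by class, 0 of 858 tests of other Zbtb genes over 27 classes were called at E14.5 and 0 of 643 over 21 classes at E18.5, by edgeR without the block and by DESeq2 alike. The block gave 1 at each stage, Zbtb42 in migrating neuron-2-like cells of E14.5 (1.01) and Zbtb18 in non-dividing Tlx3 Fgf8 cells of E18.5 (0.25). Without the block, 0 tests of the granule and precerebellar regulators were called higher and 1 lower of 571 at E14.5, and 1 higher and 15 lower of 494 at E18.5, where 0.00205% and 0.113% of all gene and class pairs were called. With the block these were 8 higher and 16 lower, and 19 higher and 25 lower, against 0.211% and 0.708% of pairs. The E14.5 shares of pairs leave out the classes fitted without litter 2, which the list counts include. Of these, migrating neuron-1-like cells had 1.42% of genes called with the block. For DESeq2 the share of all gene and class pairs called was not measured, so its counts by class stand without a background. At E14.5 Rab15 had a lower point value in the mutants in 21 of 23 classes and was called lower in 0 without the block, 7 with it and 5 with DESeq2. At E18.5 it was lower in 18 of 20 and called in 7, 6 and 6. Barhl1 was lower in 17 of 19 classes at E14.5, called in 1, 2 and 1, and in 16 of 21 at E18.5, called in 4, 7 and 4 (edgeR without the block, with it, and DESeq2). At E18.5 the astrocyte genes gave 2 higher and 0 lower of 140 tests without the block and 5 higher and 2 lower with it, and the gliogenic genes 1 higher and 4 lower of 295 without it and 2 higher and 11 lower with it. The cortical projection neuron regulators gave 0 of 289 tests at E14.5 (1 lower with the block, 0 with DESeq2). At E18.5 they gave 1 lower of 221, Mef2c in Sfrp1 Ccnd1 cells (−0.66 ± 0.08, edgeR, adjusted p = 0.00273), 2 higher and 9 lower with the block, and 3 lower with DESeq2. At E14.5 the gliogenic genes gave 0 of 432 tests without the block (edgeR; DESeq2 called 1) and 12 higher and 9 lower with it. Barhl1 in PN progenitor-like cells of E14.5 fell by 2.50 ± 0.33 on the log2 scale (edgeR, adjusted p = 0.0454), where Zbtb20 changed by 0.22 ± 0.12 and was not called. In the ePN3-like cells of E18.5, where Zbtb20 was lower, 0 of the 23 tested granule and precerebellar regulators were called without the block (edgeR), and Cdkn1c alone was called with it and with DESeq2.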

How the data were processed

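Per the labels, cells were sorted from Atoh1-Cre; Rosa lsl-tdTomato hindbrains and made into droplet 3′-end libraries. The authors deposited UMI counts per gene and barcode, filtered for cell barcodes and aligned to mm10 with Cell Ranger 5.0.1, except that the file headers of 2 E14.5 control libraries (litters 1 and 2) name 3.1.0. These counts were not normalized. Barcodes with at least 1000 genes and under 5% mitochondrial UMIs were kept, since the stated limit of 1% left 1034 barcodes. Doublet scores of the Scrublet kind, computed with an exact neighbour search, removed the top 7.5% of each library. Cells were clustered per stage (scanpy 1.11.5, 2000 variable genes, 30 components, 15 exact neighbours, shared-neighbour graph, leidenalg 0.10.2 at resolution 1.0), and PN cells again without others. Genes whose symbol starts with Zbtb, Zbtb20 among them, were left out of the variable genes used for clustering. Classes were named from marker genes of the study, which are not independent of these cells, and otherwise by leading genes. Hemoglobin genes were not used for names, also where they led.

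UMIs were summed per library and class with 10 or more cells; 2 PN classes of E14.5 with fewer in litter 2 were fitted without that litter. CPM is Zbtb20 UMIs per 1000000 UMIs of those cells. Genotypes were compared with the quasi-likelihood F test of edgeR 4.0.16 (TMM, R 4.3.3) over genes with a UMI in 10% of cells of a genotype, and a call needed a Benjamini-Hochberg adjusted p under 0.05 and a log2 change over 0.25. SE is the log2 change over the root of F. DESeq2 1.42.0, other filters, clusterings and left-out libraries were alternatives. The edgeR test without the block was also run on simulated counts, and the other fits and statistics were not. UMIs give counting precision only, and p values measure the spread between embryos.

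Replicate numbers mark litters. Deviations from group means correlated between same-numbered libraries at 0.488, 0.821 and 0.737 at E14.5 and 0.791, 0.819 and 0.928 at E18.5. Differently numbered libraries gave −0.690 to 0.290 at E14.5 and −0.807 to 0.479 at E18.5, below the same-numbered pairs of their stage. The numbers were used as pairs, and a shared litter and shared handling cannot be told apart by these values.

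Zbtb20, the lists and the markers were chosen with earlier results of these data known. Genes named were Zbtb20, up to 4 called members of each list with the largest change, the 5 most and 5 least like genes, class markers, Zbtb18 and genes at the locus. The closest relative by protein identity was not analysed here. The values of 2 cell classes and 1 list member are not reported here. After values were seen, Sox9, Atoh1 and Mapt were added to the likeness values, and Rab15, Barhl1 and Atoh1 as checks of the label, and the ePN1 markers in ePN3-like cells. Sequences are from RefSeq (GRCm38.p6).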

Additional observations from a re-analysis of the deposited data

How the results depend on the processing

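The replicate block (litter) moved Zbtb20 to a called 0.26 over all cells of E14.5, 0.41 in migrating neuron-1-like cells of E14.5, 0.33 in non-dividing Tlx3 Fgf8 cells and −0.55 in Gad2 Fbxl7 cells. It changed no other call of Zbtb20, and the interaction kept its side under all 13 alternatives. The fits without litter 2 were chosen after seeing the data and called no further class. ePN3-like cells stayed called under every alternative run but 1, without control replicate 2, and leaving out 1 library gave −1.16 to −0.85. Gad2 Fbxl7 cells were also called without the filter on low genes (−0.52), and gave −0.74 to −0.43 with 1 library left out, the first being called (without mutant 1). Pcdh15 Tgfb2 cells were called without the filter (−1.33) and at Leiden resolution 2.0 (−1.44), and gave −2.03 to −0.92 with 1 library left out. Over all cells leaving out 1 library gave 0.106 to 0.334 at E14.5. At E18.5 it gave −0.096 to 0.053, and the sign also turned with 10% mitochondrial UMIs (0.0051). The 4 E14.5 libraries of Cell Ranger 5.0.1, with control 3 alone in its arm and its spread assumed to be that of the mutants, gave 0.57.

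The number of E18.5 classes called was 1 without the block and with DESeq2, and 2 at resolution 2.0. It was 4 without the filter (1 higher and 3 lower in the mutants), 3 with the block and 0 to 3 with 1 library left out. At E14.5 it was 0 under all alternatives run over the classes present in every library. List members called over all cells at E14.5 numbered, with the block and with DESeq2, 13 and 8 gliogenic, 4 and 1 astrocyte, 7 and 1 granule or precerebellar, and 2 cortical with the block. At E18.5 they numbered 1 astrocyte with the block, and 1 granule or precerebellar with either. With 5 pseudotime bins the peak was bin 2, at 405 CPM.

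Of the class levels under the alternatives, 49 moved by more than 1 SD, 31 of them up and 18 down, and 426 did not. The 426 include every level with 1 library left out. Those levels could not be counted as moved, since leaving out 1 library always shifts a group mean by less than 1 SD. All 49 came from the other alternatives, so the 426 overstate the stability of the levels. Without doublet removal ePN2-like cells read 118 CPM, E14.5 Foxb1 Hoxb5 neurons 97.9, PN2-like cells 31.1 and PN6-like cells 8.03 CPM, and with 10% mitochondrial UMIs Gad2 Fbxl7 cells read 237 CPM. In proportion the widest drop was that of E18.5 Nr2f2 Crh cells, from 206 CPM to 71.3 with 10% mitochondrial UMIs. At resolution 2.0 they read 75.7 CPM, and both values lay within 1 SD of their wide spread. E14.5 migrating neuron-2-like cells fell from 267 to 183 CPM with 10% mitochondrial UMIs. The cause was not tested. The few UMIs of Pcdh15 Tgfb2 cells limit that comparison.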

Other observations

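Zbtb20 was also read in cells not described above. Granule cells of P5 came almost entirely from library 2, where 301 cycling granule progenitor-like cells held 493 CPM and 418 Nhlh1 granule neuron-like cells held 264 CPM. Library 1 had 5 and 11 such cells, the latter with 499 CPM.

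The 5 clusters that stayed unnamed for low depth had a high share of Zbtb20. They held 635 CPM over 327 cells at E14.5, 463 CPM over 321 cells at E18.5, and 282 CPM over 357 cells, 586 CPM over 90 cells and 1400 CPM over 85 cells at P5.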
